A study of Mus musculus with 4 samples.

Results

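Emx2, Gli3 and Etv4 are 3 of the 140 genes of a MERFISH panel, and they were taken by name from the count columns of all 4 coverslips. MERFISH reads barcoded RNA molecules in place in tissue by repeated rounds of hybridization and imaging. The panel was applied to coronal sections, 10 µm thick and holding barrel cortex, of mice at postnatal day 5, which had lost whiskers on the right snout to a lesion at postnatal day 4, 24 h earlier. Coverslips 3 and 4 were female and coverslips 1 and 2 were male. Every coverslip held 1 section of a Cx3cl1(-/-) mouse, which lacks the chemokine fractalkine, and 1 section of a wild-type mouse. All animals had the lesion, and all cells of a section come from 1 animal. The files name neither the genotype nor the hemisphere of a cell, so neither was assigned, and each value below pools both genotypes and both hemispheres. Whether the coverslips stand for 4 separate litters or experiments is not stated, and the p-values measure the spread between these 4 coverslips.

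All 3 genes encode transcription factors of the developing forebrain. Emx2 is a homeodomain factor of the dorsal telencephalon that is needed for the growth of the hippocampus and for the area map of the cortex. Gli3 is a zinc finger factor of the Hedgehog pathway, which in its repressor form keeps dorsal identity in the telencephalon and is present in radial glia. Etv4, also called Pea3, is an ETS factor whose transcription follows FGF signalling through the MAP kinase cascade. In the RefSeq annotation of build GRCm38.p6 Emx2 lies at chr19:59458690-59465357, Gli3 at chr13:15463723-15730026 and Etv4 at chr11:101769747-101785310.

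The RefSeq promoter sequences of Emx2 and Gli3 are shown, and no such sequence was available here for Etv4. Each covers 250 bases before and 50 bases after the gene's start on the plus strand of GRCm38.p6, at chr19:59458440-59458739 for Emx2 and at chr13:15463473-15463772 for Gli3. Capitals mark CG dinucleotides.
Emx2: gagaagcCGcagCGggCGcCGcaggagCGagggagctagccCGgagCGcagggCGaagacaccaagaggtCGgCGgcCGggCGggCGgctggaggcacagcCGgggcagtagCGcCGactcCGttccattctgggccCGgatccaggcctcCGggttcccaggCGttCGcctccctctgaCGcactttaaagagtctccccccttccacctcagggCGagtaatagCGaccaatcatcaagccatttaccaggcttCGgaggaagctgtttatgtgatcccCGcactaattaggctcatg
Gli3: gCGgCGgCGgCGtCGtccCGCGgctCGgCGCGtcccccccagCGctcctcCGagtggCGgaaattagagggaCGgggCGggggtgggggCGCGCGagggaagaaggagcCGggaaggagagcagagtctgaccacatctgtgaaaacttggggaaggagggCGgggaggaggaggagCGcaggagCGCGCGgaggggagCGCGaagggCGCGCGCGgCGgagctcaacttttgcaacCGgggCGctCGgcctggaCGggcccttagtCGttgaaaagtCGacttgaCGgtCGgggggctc
The Emx2 window held 26 CG dinucleotides and the Gli3 window 39, against a median of 7 over 32851 promoter windows of the same length. As many as in Emx2 were found in 16.9% of those windows, and as many as in Gli3 in 4.45%. Neither window held the letters GACCACCCA (a GLI motif, in 0.253% of all windows), CTTTGAT (a TCF/LEF motif, in 3.73%) or CCGGAAG (an ETS motif, in 8.86%) on either strand. The homeodomain core TAATTA, which reads the same on both strands and was added after the sequence had been read, occurred once in Emx2, at bases 287 to 292 of the window, and in 5.29% of all windows.

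The files held 863580 segmented cells, of which 794833 had at least 20 gene counts and were kept. Gene counts totalled 44924894 and 76555311 on the female coverslips 3 and 4, against 33519204 and 37922304 on the male coverslips 1 and 2. Cells held a median of 175 and 268 counts on the female coverslips and 123 and 147 on the male ones, so depth moved with sex, and its part in differences between coverslips cannot be told apart from sex. The 40 blanks, barcodes assigned to no gene that count decoding errors, made up 1.16% to 1.48% of counts. Over all cells Emx2 was counted 27798, 52241, 19662 and 26739 times on coverslips 3, 4, 1 and 2, and Gli3 65240, 115178, 48134 and 47575 times. Etv4 was counted 66829, 122486, 57618 and 53550 times.

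Cells were grouped by marker counts into 94891 astrocyte-like, 50973 OPC-like (oligodendrocyte precursor) and 530663 neuron-like cells. The astrocyte-like cells averaged 14.9 ± 1.1 Slc1a3 and 8.90 ± 1.52 Aqp4 counts per cell, and the OPC-like cells 15.7 ± 1.8 Pdgfra counts (SD, n = 4 coverslips here and below). No cluster met the name of immature glia. That class was therefore set by a rule on marker counts, as the 13597 cells of the astrocyte-like cluster and of an unnamed cluster led by Ezr that had at least 3 Slc1a3 counts and 0 Aqp4 counts. Of these, 9664 came from the astrocyte-like cluster. Immature glia averaged 3.07 ± 0.95 Vim, 4.35 ± 0.96 Sox2 and 3.99 ± 0.86 Sox9 counts per cell. Astrocyte-like cells averaged 2.72 ± 0.83, 5.93 ± 1.65 and 5.86 ± 1.55. These markers did not set the class apart, and its name rests on the rule alone. The median cell had 99 counts in immature glia and 180 in the astrocyte-like class, and the part of depth in who enters the rule was not tested. Meg3, an abundant neuronal RNA, averaged 4.64 ± 1.08 counts in astrocyte-like cells, 3.03 ± 1.10 in immature glia and 8.33 ± 1.52 in OPC-like cells, against 96.3 ± 28.6 in neuron-like cells. The part of transcripts from neighbouring cells in the glial levels was not tested. The labels name barrel cortex as the tissue, while clusters and territories of thalamic and striatal type show that the sections hold more than cortex.

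In astrocyte-like cells Etv4 was the most counted of the 3 genes, Gli3 came next and Emx2 was lowest. Counts are not corrected for probe number or transcript length, so the order between genes is an order of counts and not of RNA amounts. Emx2 had 0.274 and 0.374 counts per astrocyte-like cell on the female coverslips 3 and 4 and 0.179 and 0.221 on the male coverslips 1 and 2. In neuron-like cells the same coverslips gave 0.125, 0.197, 0.115 and 0.137. Every astrocyte-like value lay above the highest blank in the same cells, while 3 to 11 of the 40 blanks were at or above Emx2 in neuron-like cells.
Gli3 had 0.807, 1.15, 0.672 and 0.676 counts per astrocyte-like cell on coverslips 3, 4, 1 and 2, against 0.284, 0.411, 0.234 and 0.182 per neuron-like cell. The Gli3 values of these classes did not overlap, and how many other panel genes do the same was not counted. In neuron-like cells Gli3 exceeded every blank on 1 of 4 coverslips. In those cells 1, 0, 1 and 3 of the 40 blanks were at or above it on coverslips 3, 4, 1 and 2. The second highest blank was 0.178, 0.237, 0.186 and 0.199 on the same coverslips, and the mean blank 0.098, 0.112, 0.085 and 0.088. Etv4 had 1.39, 2.12, 1.22 and 0.929 counts per astrocyte-like cell against 0.174, 0.208, 0.172 and 0.151 per neuron-like cell, where 2 or 3 blanks were at or above it on each coverslip.

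The class comparison used edgeR's quasi-likelihood fit on sums per coverslip, with coverslip as a block and the summed cell volume as offset, and glmTreat against a 2-fold difference, adjusted by the Benjamini-Hochberg method over the 103 panel genes that had not been used for clustering. A gene was called at an adjusted p under 0.05 if it also exceeded all 40 blanks on every coverslip in the class where it was higher. Etv4 was 7.75-fold higher in astrocyte-like than in neuron-like cells (log2 2.95, SE 0.11, adjusted p = 1.7e-09), higher on 4 of 4 coverslips. Gli3 was 3.05-fold higher (log2 1.61, SE 0.08, adjusted p = 2.2e-06), also on 4 of 4. Emx2 did not pass, with a log2 difference of 0.85 (SE 0.10, adjusted p = 1, edgeR), although its values in astrocyte-like cells were above those of neuron-like cells on all 4 coverslips. Of 103 genes, 12 were called higher (11.7%) and 24 lower (23.3%) in astrocyte-like cells. With library totals as the scale 20 were called higher and 12 lower, and Emx2 was then called at a log2 difference of 1.28 (adjusted p = 0.0081, edgeR).
The median of all 103 genes was -0.75 on the log2 scale with the volume offset, -0.32 with library totals and -0.24 with TMM factors. Relative to the median gene, Emx2 stood 1.60, Gli3 2.35 and Etv4 3.70 above it under each of these scalings. A change of scale shifts all genes alike, so these distances stay equal by construction and are no check of the result. Since the neuron level of each gene was at or below the highest blank on at least 3 of 4 coverslips, these folds are over neuron counts within the range of the blanks. Set against the highest blank in neuron-like cells instead, or against the gene where that was higher, Etv4 was 3.72-fold and Gli3 1.99-fold higher in astrocyte-like cells. Over coverslips these folds ranged from 2.09 to 8.06 and from 1.52 to 2.85. For Emx2 the same fold was 0.694 (0.408 to 1.42), so on average it did not exceed that blank.

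**Figure D1:**
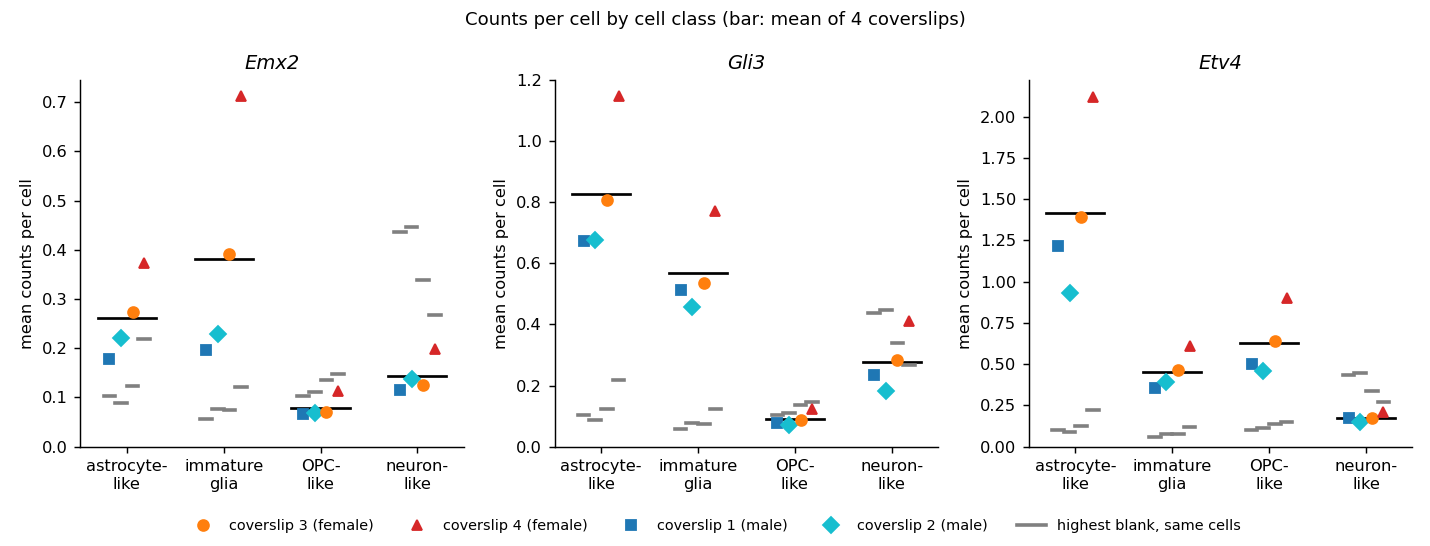
Mean counts per cell (y axis) of Emx2, Gli3 and Etv4 in 4 cell classes, 1 point per coverslip, with a black bar at the mean and a grey dash at the highest of 40 blanks in the same cells. Etv4 and Gli3 peak in astrocyte-like cells, Emx2 is highest in immature glia on coverslip 4 (0.713), and the OPC-like means are above the blanks for Etv4 but not for Emx2 or Gli3.

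Immature glia carried all 3 genes above every blank on every coverslip. Emx2 had 0.391 and 0.713 counts per immature glial cell on the female coverslips 3 and 4 and 0.196 and 0.229 on the male coverslips 1 and 2. The female values were above both male ones, and coverslip 4 stood apart from the others. Gli3 had 0.535, 0.770, 0.512 and 0.455 counts on coverslips 3, 4, 1 and 2, and Etv4 0.465, 0.609, 0.354 and 0.389.
Against neuron-like cells Etv4 was 3.18-fold (log2 1.67, SE 0.16), Emx2 2.99-fold (log2 1.58, SE 0.16) and Gli3 2.62-fold (log2 1.39, SE 0.15) higher per volume in immature glia. Set against the highest blank in neuron-like cells, or the gene where that was higher, the folds were 1.52 for Etv4 (1.02 to 2.92 over coverslips), 1.15 for Emx2 (0.563 to 3.42) and 1.72 for Gli3 (1.27 to 2.42). The adjusted p-values of the fitted folds in edgeR were 5.6e-06, 1.2e-04 and 0.0021, and each gene was higher on 4 of 4 coverslips. In this comparison 13 of 103 genes were called higher (12.6%) and 19 lower (18.4%), and library totals gave 21 higher and 7 lower. The median gene was at -0.72 with the volume offset and at 0.17 with library totals. Emx2 lost its call when cells were clustered at resolution 2 (log2 1.20, adjusted p = 0.089, edgeR), and the range of its adjusted p when 1 coverslip was left out was 4.1e-06 to 0.028 (edgeR).
Per 10000 counts, which takes out depth, Gli3 made up 48.5 ± 1.3 of the counts of immature glia and 41.1 ± 2.4 of those of astrocyte-like cells. Emx2 made up 30.8 ± 11.9 and 12.96 ± 1.83, and Etv4 38.8 ± 3.2 and 69.3 ± 9.0, in the same order of classes. These differences between the 2 glial classes were not tested.

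Averaged over all OPC-like cells, Etv4 was above the blanks on every coverslip, while Emx2 and Gli3 were not. Etv4 had 0.641, 0.900, 0.502 and 0.457 counts per OPC-like cell on coverslips 3, 4, 1 and 2. It was 3.36-fold higher than in neuron-like cells (log2 1.75, SE 0.08, adjusted p = 2.2e-12, edgeR) and higher on 4 of 4 coverslips. Against the highest blank in neuron-like cells the fold was 1.61, with a range of 0.979 to 3.34 over coverslips. Etv4 had the largest log2 difference of the 103 genes in this comparison, in which 3 were called higher (2.91%) and 23 lower (22.3%), against 6 and 3 with library totals. The median gene was at -1.03 with the volume offset and at -0.05 with library totals.
Emx2 had 0.070, 0.113, 0.066 and 0.067 counts per OPC-like cell on coverslips 3, 4, 1 and 2, and Gli3 0.086, 0.122, 0.078 and 0.070. Between 3 and 5 blanks were at or above Emx2, and between 1 and 3 at or above Gli3, in these cells. The mean of neither gene over the whole class stood out from the blanks, and no fold against neuron-like cells is given. Emx2 did exceed every blank in the OPC-like cells of the inner band described below.

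Astrocyte-like cells were 11.9% ± 0.9 of the kept cells and held 45.5% ± 5.2 of all Etv4 counts, 29.4% ± 2.9 of all Gli3 counts and 20.1% ± 1.6 of all Emx2 counts. OPC-like cells held 10.9% ± 1.6 of the Etv4 counts. After each cell had been thinned to 100 counts, with shallower cells left out, Etv4 was found in 45.8% ± 3.6 of astrocyte-like cells, 26.2% ± 2.3 of immature glia and 34.6% ± 3.8 of OPC-like cells, against 6.21% ± 0.73 of neuron-like cells. Gli3 was found in 31.8% ± 1.5, 34.6% ± 1.7 and 5.54% ± 0.17 of these glial classes, against 9.06% ± 1.17 of neuron-like cells. Emx2 was found in 11.4% ± 1.4, 24.5% ± 7.8 and 5.35% ± 0.48 of them, against 5.07% ± 0.51 of neuron-like cells. In microglia-like cells, which should lack all 3 genes, the thinned shares were 3.16% ± 0.55 for Emx2, 7.48% ± 1.41 for Gli3 and 6.78% ± 0.38 for Etv4. The thinned shares of Gli3 in OPC-like cells and of Etv4 in neuron-like cells were at or below this background. Those of Emx2 in OPC-like and neuron-like cells and of Gli3 in neuron-like cells were above it. Thinning left out 24.0% of astrocyte-like cells, 50.2% of immature glia, 41.6% of OPC-like cells and 19.7% of neuron-like cells. Without thinning, Etv4 was found in 59.1% ± 7.9 of astrocyte-like, 27.6% ± 3.6 of immature and 39.4% ± 7.4 of OPC-like cells, against 15.1% ± 1.7 of neuron-like cells. Unthinned Gli3 was found in 44.9% ± 6.4, 34.9% ± 4.6 and 7.26% ± 1.52 of the glial classes, against 21.4% ± 6.0 of neuron-like cells, and Emx2 in 19.1% ± 4.2, 24.0% ± 10.2 and 6.93% ± 1.63, against 11.8% ± 2.1. Median depth was 180 counts in astrocyte-like, 99 in immature, 117 in OPC-like, 234 in neuron-like and 128 in microglia-like cells.
Co-detection of the genes in single cells was also described. In thinned immature glia Emx2 was found in 25.9% ± 8.4 of cells with Gli3 and 23.8% ± 7.6 of cells without it, higher with Gli3 on 4 of 4 coverslips. Etv4 was found in 21.3% ± 3.1 of immature glia with Emx2 and 28.1% ± 3.0 of those without, lower with Emx2 on 4 of 4. In astrocyte-like cells the same shares of Etv4 were 45.0% ± 2.8 and 45.9% ± 3.7. Immature glia mixed cells of the Ezr-led and the astrocyte-like cluster. On coverslip 3 those of the Ezr-led cluster had 57.7 Emx2 and 16.2 Etv4 per 10000 counts. Those of the astrocyte-like cluster had 20.96 and 54.4, and the direction was the same on the other coverslips. The part of this mix in the shares was not tested. All these shares are descriptions of sparse counts and carry no test.

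Among the other populations Gli3 exceeded every blank on 4 of 4 coverslips in the vessel-marker cluster (0.263 ± 0.053 counts per cell), in an unnamed cluster led by Mrc1, a gene of border macrophages (0.531 ± 0.105), and in the Ezr-led cluster (0.478 ± 0.124). Emx2 reached 0.356 ± 0.225 counts per cell in the Ezr-led cluster, above every blank on 4 of 4 coverslips. Etv4 averaged 0.141 ± 0.042 there, near the blanks. In the 19171 cells of that cluster outside the territories described below, Etv4 averaged 0.137 ± 0.042, under the highest blank on any coverslip (0.150). It was under that blank in striatal-type and thalamic-type territory too, and above it in the inner band (0.166 ± 0.021 against 0.134). Microglia-like cells held none of the 3 genes above every blank on any coverslip.
Over the 16 populations with enough counts, the panel genes most like Emx2 in log2 mean counts per cell were Wnt8b (Pearson r = 0.84), Sfrp1 (0.82), Gpc4 (0.77), Gli3 (0.68) and Sfrp5 (0.67). Those most like Gli3 were Gpc4 (0.76), Bcl2 (0.71), Fzd1 (0.70), Emx2 (0.68) and Wnt5a (0.67). Etv4 was less closely matched, with Daam2 (0.58), Wnt7a (0.47), Slc9a3r1 (0.43), Fzd2 (0.41) and Fzd9 (0.38), and its own r was 0.25 with Emx2 and 0.29 with Gli3. The populations share coverslips and depth, so these values only describe the pattern.

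Position was read from territories. These were squares of side 200 in the coordinate units of the files, whose length unit is not given, assigned by the neuron clusters they held and without any glial cell or member gene. Cortical territory was led by the layer markers Cux2, Rorb and Syt6, striatal-type territory by Bcl11b with Gad2, and thalamic-type territory by Slc17a6. They held 9387, 7650 and 10243 astrocyte-like cells. Most kept cells (57.6% ± 3.1) lay in none of these territories nor in the inner band described below, and 16.2% ± 2.1 lay in cortical territory. The cluster led by Cux2 and Rorb had 54477 cells in cortical territory and 14456 in none. The Syt6-led cluster had 13395 and 23310, so cortical territory left out many neurons of layer type.
Emx2 had 0.338, 0.437, 0.248 and 0.247 counts per astrocyte-like cell in cortical territory on coverslips 3, 4, 1 and 2. In thalamic-type territory it had 0.107, 0.150, 0.060 and 0.085, below the highest blank on every coverslip. The Emx2 values of these territories did not overlap. How many other panel genes do the same was not counted, here or for Gli3 below.
Gli3 had 0.914, 1.30, 0.768 and 0.772 counts in cortical territory against 0.518, 0.633, 0.429 and 0.394 in thalamic-type territory, again without overlap. Etv4 had 1.66, 2.33, 1.37 and 1.11 counts in cortical territory against 1.75, 2.70, 1.46 and 1.05 in thalamic-type territory, and here the ranges overlapped.
In immature glia Etv4 averaged 0.995 ± 0.355 counts in thalamic-type territory (1142 cells), 0.436 ± 0.274 in cortical territory, which held 170 such cells, and 0.388 ± 0.126 in striatal-type territory. That difference was not tested.

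Tested against a 1.5-fold difference with the same edgeR fit, Emx2 was 3.24-fold higher in cortical than in thalamic-type territory (log2 1.69, SE 0.12, adjusted p = 2.5e-18). With the highest blank in place of its thalamic level the fold was 2.04. It was higher on 4 of 4 coverslips and had the third largest log2 difference of the 103 genes. Gli3 was 1.90-fold higher (log2 0.93, SE 0.11, adjusted p = 6.7e-04, edgeR), on 4 of 4 coverslips. Etv4 had a log2 difference of -0.07 (SE 0.11, adjusted p = 1, edgeR). Of 103 genes 15 were called higher (14.6%) and 8 lower (7.77%). Without the coverslip as a block the Gli3 difference kept its size and lost its call (adjusted p = 0.15, edgeR), and over the settings that left out 1 coverslip its adjusted p ranged from 6.2e-04 to 0.021.
Astrocyte-like cells of the territories also differed in their defining markers. Slc1a3 averaged 17.1 ± 0.9 counts in cortical and 10.3 ± 1.1 in thalamic-type territory, Aqp4 12.9 ± 2.0 and 8.79 ± 1.46, and Sox2 4.76 ± 1.54 and 7.51 ± 1.89. Summed panel counts per cell were close, at 209 ± 48 and 215 ± 48. The part of these differences in the result was not tested.

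Against striatal-type territory none of the 3 genes passed. Emx2 had 0.194, 0.219, 0.145 and 0.181 counts per astrocyte-like cell there on coverslips 3, 4, 1 and 2, and cortical territory was higher by a log2 difference of 0.75 (SE 0.10, adjusted p = 0.088, edgeR), which missed the threshold though the sign held on 4 of 4 coverslips. It passed when male replicate 1 or male replicate 2 was left out (adjusted p = 0.041 and 0.044, edgeR).
Gli3 had 1.10, 1.58, 1.02 and 1.02 counts in striatal-type territory, the highest of the territories on each coverslip, and its log2 difference of cortical over striatal-type territory was -0.35 (SE 0.07, adjusted p = 1, edgeR). Etv4 had 1.20, 1.68, 1.00 and 0.862 counts in striatal-type territory and a log2 difference of 0.42 (SE 0.07, adjusted p = 1, edgeR). Here 7 of 103 genes were called higher (6.8%) and 4 lower (3.88%).

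**Figure D2:**
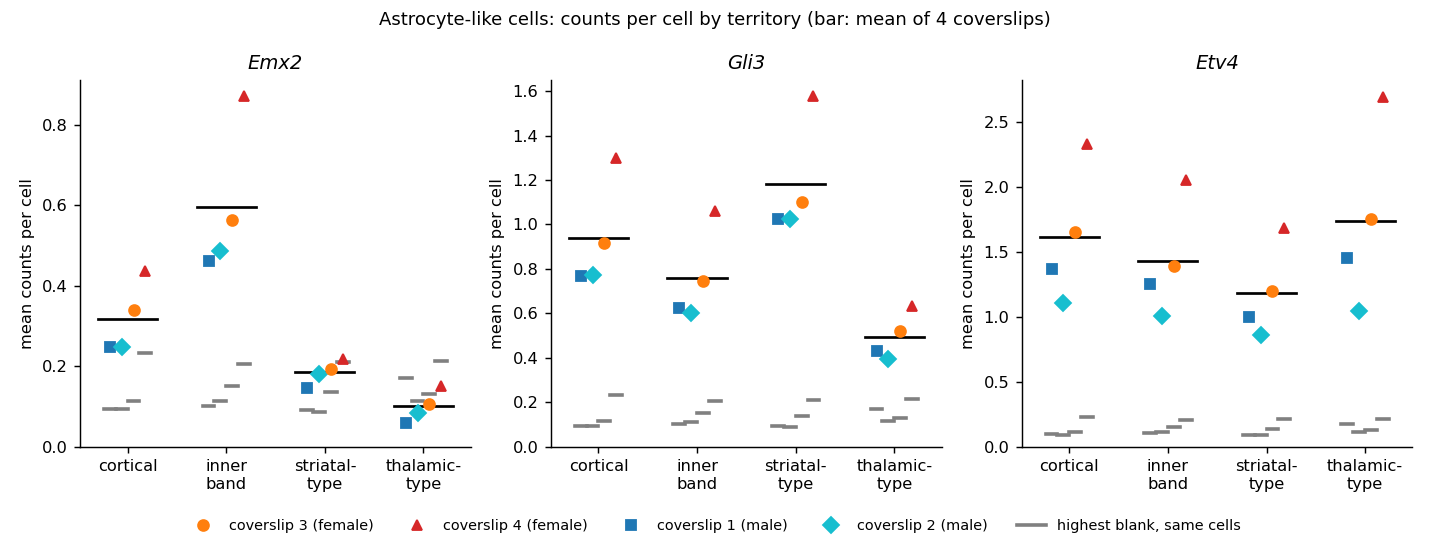
Mean counts per astrocyte-like cell (y axis) in 4 territories, 1 point per coverslip, with a black bar at the mean and a grey dash at the highest blank in the same cells. Emx2 is highest in the inner band and lies under the highest blank in thalamic-type territory, Gli3 is highest in striatal-type territory, and Etv4 varies more between coverslips than between territories.

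The highest Emx2 levels lay in an inner band. It was made of squares at least 800 coordinate units from the tissue edge in which at least 50% of neurons belonged to clusters led by Bcl11b or by no marker, with under 5% neurons of layer clusters around them. The band was defined after the Emx2 maps had been seen, so its values are a description with no test.
Emx2 had 0.563, 0.871, 0.461 and 0.486 counts per astrocyte-like cell in the inner band on coverslips 3, 4, 1 and 2. It averaged 0.752 ± 0.368 in immature glia, 0.466 ± 0.210 in neuron-like cells and 0.191 ± 0.063 in OPC-like cells of the band, above every blank on 4, 3 and 4 coverslips in that order. The band held 6.18% ± 1.20 of the kept cells and 18.4% ± 5.6 of all Emx2 counts. For Gli3 the band held 7.14% ± 0.95 of the counts and for Etv4 7.93% ± 1.63, close to its share of cells. Gli3 averaged 0.757 ± 0.210 and Etv4 1.43 ± 0.45 counts per astrocyte-like cell there. Gfap averaged 18.6 ± 4.0 counts in those cells against 6.66 ± 1.61 in cortical territory.
Neurons of the same cluster were also compared by place, again as a description. In the neuron cluster led by no marker, Emx2 averaged 0.613 ± 0.285 counts per cell in the inner band and 0.124 ± 0.036 in cortical territory. In the Slc17a6-led cluster it averaged 0.482 ± 0.215 in the inner band, 0.225 ± 0.109 in cortical and 0.089 ± 0.014 in thalamic-type territory. The highest blank on any coverslip was 0.436 and 0.328 in the first cluster and 0.267, 0.259 and 0.674 in the Slc17a6-led one, in the same order of places, so only the inner band means lay above it. Cells of the Ezr-led cluster reached 0.821 ± 0.338 in the inner band.

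**Figure D3:**
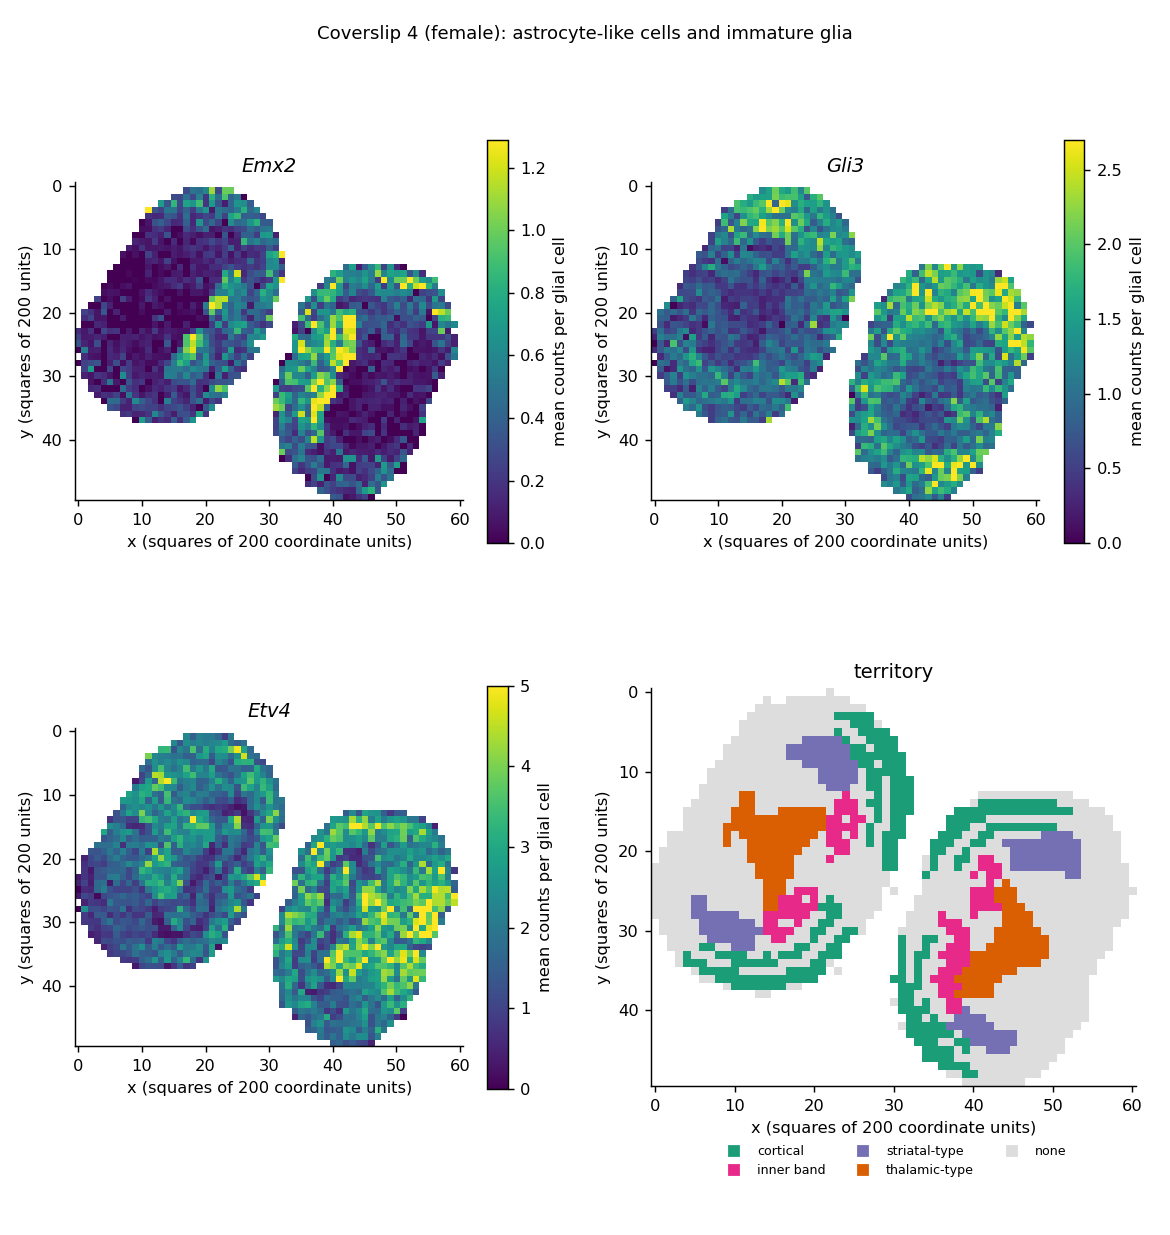
Both sections of coverslip 4, in squares of 200 coordinate units, coloured by mean counts of Emx2, Gli3 or Etv4 per astrocyte-like or immature glial cell (squares with at least 2 such cells), and by territory. Emx2 is brightest along the inner bands, Gli3 is dim in thalamic-type territory, and Etv4 is dim along narrow stripes that lie mostly outside the territories.

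Near the cells of the Ezr-led cluster, whose other markers Vim, Sox9, Sox2 and Gfap are genes of radial glia and of cells lining the ventricles, the 3 genes had different profiles. Distances were taken from cells of that cluster with at least 5 Ezr counts. Within 50 coordinate units astrocyte-like cells averaged 0.469 ± 0.237 Emx2 counts, and the mean was 0.338 ± 0.095 at 50 to 100 units, 0.274 ± 0.083 at 100 to 200 units and 0.184 ± 0.048 at 400 to 800 units. Farther out the Emx2 mean was higher again, at 0.197 ± 0.034 at 800 to 1600 units and 0.273 ± 0.079 beyond 1600 units. These 2 means and that at 400 to 800 units lay under the highest blank on any coverslip (0.251, 0.275 and 0.234). Within coverslips, Emx2 was under the highest blank on coverslip 4 at 800 to 1600 units (0.241 against 0.251). It was also under it on coverslip 1 beyond 1600 units (0.194 against 0.208), and above it otherwise in these bins. On coverslip 2 Emx2 was higher at 50 to 100 units than in the nearest bin, at 0.332 against 0.286. The same held there for immature glia, at 0.322 against 0.294. Etv4 was lowest near the Ezr-led cells, with 0.626 ± 0.311 counts per astrocyte-like cell within 50 units, 1.12 ± 0.43 at 50 to 100 units and 1.70 ± 0.64 at 400 to 800 units. Gli3 had 0.994 ± 0.260 counts within 50 units, about 0.720 between 100 and 800 units and 1.16 ± 0.36 beyond 1600 units.
In immature glia Emx2 averaged 0.475 ± 0.271 within 50 units and 0.067 ± 0.019 at 400 to 800 units, the second value under the highest blank on any coverslip (0.129). Gli3 averaged 0.690 ± 0.148 and 0.290 ± 0.062 over the same bins, and Etv4 0.273 ± 0.094 and 0.993 ± 0.421. Farther out, at 800 to 1600 units, Etv4 averaged 0.741 ± 0.218. Cells of the Ezr-led cluster with under 5 Ezr counts stayed in this class. On coverslip 4 immature glia of that cluster had 67.5 Emx2 and 15.9 Etv4 per 10000 counts. Those of the astrocyte-like cluster had 30.7 and 55.8. The direction was the same on the other coverslips, and the part of this mix in the profiles was not tested. For Emx2 and Etv4, the bins within 50 and at 400 to 800 units from the Mrc1-led cells differed as those from the Ezr-led cells did. Within 50 units of those cells immature glia averaged 0.559 ± 0.263 Emx2 and 0.288 ± 0.109 Etv4 counts, and at 400 to 800 units 0.124 ± 0.101 and 0.675 ± 0.279. Astrocyte-like cells averaged 0.313 ± 0.142 Emx2 and 0.967 ± 0.340 Etv4 counts within 50 units of them, and 0.181 ± 0.063 and 1.58 ± 0.58 at 400 to 800 units. Their Emx2 mean did not peak in the nearest bin and was 0.334 ± 0.110 at 50 to 100 units. On coverslips 3, 4, 1 and 2 Emx2 was 0.326, 0.505, 0.178 and 0.244 within 50 units. At 50 to 100 units it was 0.357, 0.480, 0.239 and 0.260. At 800 to 1600 units it was 0.431, 0.133, 0.088 and 0.075 on the same coverslips.
Vim, a gene of radial glia, averaged 5.81 counts per astrocyte-like cell within 50 units of the Ezr-led cells and 3.83 at 50 to 100 units. Immature glia averaged less Vim in the same bins, at 3.51 and 2.13. The make-up of both classes thus moved with distance, and its part in these gradients was not tested.

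**Figure D4:**
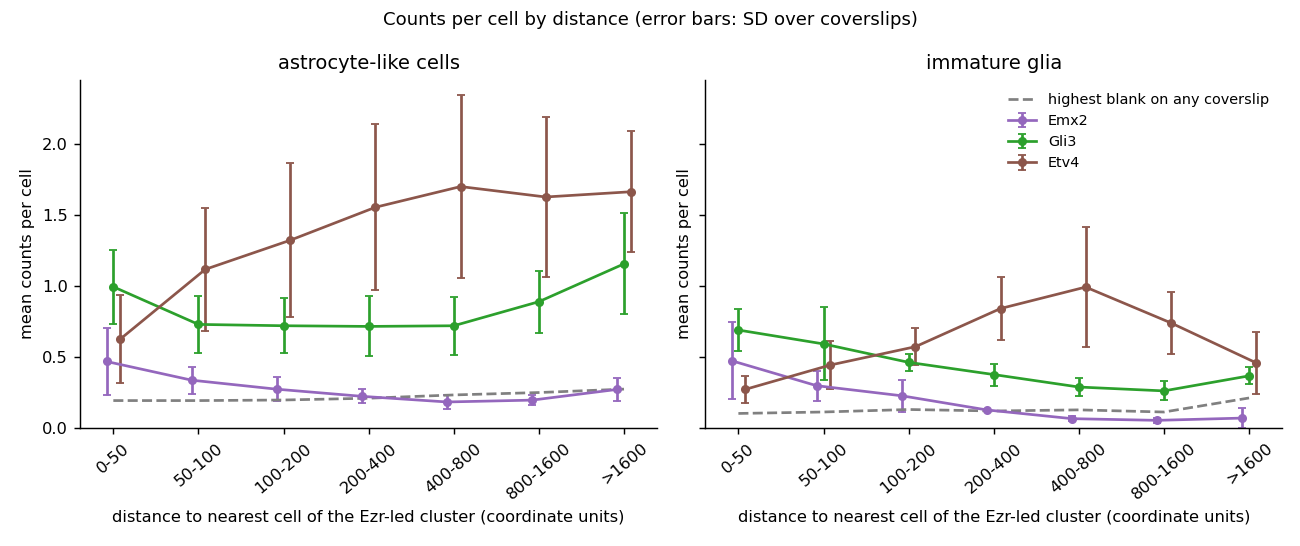
Mean counts per cell (y axis, SD over coverslips as bars) of the 3 genes in astrocyte-like cells and in immature glia, by distance to the nearest cell of the Ezr-led cluster (x axis, coordinate units, unequal bins). The mean of Emx2 over coverslips is highest in the nearest bin and that of Etv4 is lowest there, in both classes. The dashed line is the highest blank on any coverslip. In astrocyte-like cells the Emx2 mean rises again in the farthest bins but stays under that line there.

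Each coverslip's 2 sections were separated by their positions. In astrocyte-like cells Emx2 had 0.181 and 0.381 counts in the sections of coverslip 3, 0.289 and 0.465 in those of coverslip 4, 0.160 and 0.194 in those of coverslip 1 and 0.175 and 0.260 in those of coverslip 2. Gli3 ranged over the 8 sections from 0.597 to 1.37 counts and Etv4 from 0.862 to 2.51. The sections of a coverslip come from mice of different genotype and need not lie at the same level of the brain, and genotype and level cannot be told apart here.
Female and male coverslips were compared in astrocyte-like cells per library total. Per 10000 counts, Emx2 had 13.4 and 14.2 on the female coverslips and 10.3 and 13.9 on the male ones. Gli3 had 39.6 and 43.6 on female and 38.5 and 42.6 on male coverslips, and Etv4 68.2 and 80.6 on female and 69.8 and 58.6 on male coverslips. The log2 differences of 0.19 (SE 0.17), 0.04 (SE 0.13) and 0.21 (SE 0.16) did not pass, at adjusted p-values of 0.67, 0.93 and 0.65 in edgeR. No gene of 103 was called in either direction (0% and 0%) by edgeR or DESeq2, and 8 had an unadjusted p under 0.05 in edgeR. The sex interaction was called for 11 of 103 genes (10.7%) in immature glia over neuron-like cells and for 2 (1.94%) in OPC-like over neuron-like cells, in either direction. With 2 coverslips per sex an exact permutation test cannot reach a two-sided p of 0.05, and the smallest it allows is 1/3.

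The panel holds few other genes of the pathways around these 3. Of 5 Wnt ligand genes of the cortical hem and dorsal midline (Wnt2b, Wnt3a, Wnt5a, Wnt7b and Wnt8b), 0 were called in any class comparison. Over all 103 genes 11.7%, 12.6% and 2.91% were called higher in astrocyte-like, immature and OPC-like cells, and 23.3%, 18.4% and 22.3% lower. Counts this small on 5 genes cannot tell the list from the panel. Their median log2 difference of astrocyte-like over neuron-like cells was 0.04, beside -0.75 over all 103 genes. Between cortical and thalamic-type territory 0 of the 5 were called higher and 1 lower, beside 14.6% and 7.77% of all 103 genes. That gene was Wnt5a, a non-canonical Wnt ligand, with a log2 difference of -0.92 (SE 0.11, adjusted p = 9.9e-04, edgeR), at 0.284 ± 0.041 counts per astrocyte-like cell in cortical against 0.547 ± 0.131 in thalamic-type territory. Wnt8b, the gene most like Emx2 over populations, averaged 0.213 ± 0.063 counts per astrocyte-like cell in the inner band and 0.105 ± 0.028 in cortical territory, where it did not exceed every blank on any coverslip.
Of 16 transcription factor genes of radial glia and astrocytes, 4 were in the panel and 2 outside the clustering genes. Both were called higher in astrocyte-like over neuron-like cells, beside 11.7% of all 103 genes. Tcf7l1, a transcription factor of the Wnt pathway, was 4.82-fold (adjusted p = 9.1e-08, edgeR) and Id1, an inhibitor of helix-loop-helix factors, 4.76-fold higher (adjusted p = 7.7e-07, edgeR). Tcf7l1 was also higher in immature glia than in neuron-like cells (2.66-fold, adjusted p = 0.0028, edgeR). Id1 was 3.12-fold higher in cortical than in thalamic-type territory (log2 1.64, SE 0.11, adjusted p = 3.7e-20, edgeR), while Tcf7l1 was not called there. None of the 10 listed Hedgehog pathway genes and none of the 10 listed FGF and ETS genes was in the panel.

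**Figure D5:**
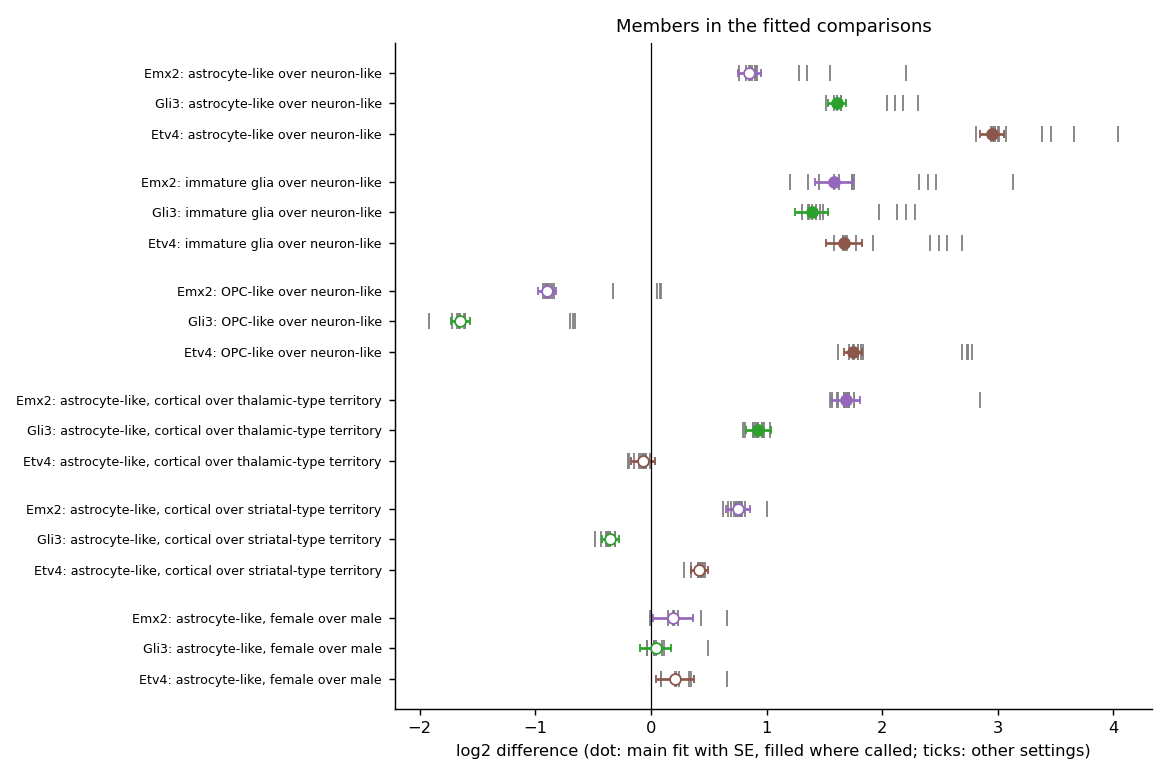
Log2 differences (x axis) of the 3 genes in each fitted comparison, with the main value as a dot with its SE, filled where called, and every other setting as a grey tick. Etv4 and Gli3 lie right of 0 in astrocyte-like over neuron-like cells under every setting tried, and the ticks of Emx2 in OPC-like cells lie on both sides of 0.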

How the data were processed

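Per the file headers, the deposited tables list for every segmented cell the count of each of 140 genes and 40 blanks, with cell volume and cell centre as other measures. The length unit of volume and position, and the software for decoding and segmentation, were not given in the sources used here. The counts had no normalization by the authors. The members, gene lists and comparisons were chosen with earlier results of these data known.

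Cells with under 20 counts (7.96%) were left out. Counts of 37 marker genes, scaled to 200 per cell, were clustered with leidenalg 0.10.2 and igraph 0.11.9 (Leiden, resolution 1) on 15000 cells per coverslip and 15 neighbours, and other cells took the cluster of their neighbours. Neuron-like clusters had a mean of at least 30 Meg3 counts. A low-count cluster stayed out, and no doublet caller was run. Counts were summed per coverslip (n = 4) and class and fitted with edgeR 4.0.16 in R 4.3.3. The same coverslip holds both classes compared, which is why it is the block. The fit was tested on simulated sums of the astrocyte-like and neuron-like classes. Alternatives used library totals, TMM factors, DESeq2 1.42.0, other filters and clusterings, blank subtraction, no block, and each coverslip left out. Cell identifiers are running numbers that repeat between files and were not used to match cells. Named besides the 3 genes were, per gene, the 5 non-clustering genes most like it and the called members of 4 fixed lists.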

Additional observations from a re-analysis of the deposited data

Results flagged for a closer look

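The difference of Emx2 between immature glia and neuron-like cells was not the same in both sexes. The female minus male log2 difference was 1.0 (SE 0.24, adjusted p = 0.014, edgeR interaction term, 2 coverslips per sex), and 11 of 103 genes (10.7%) were called in this interaction. It was 0.67 at clustering resolution 2 (adjusted p = 0.65), and over the settings without 1 coverslip it ranged from 0.86 to 1.15, with the call lost without female replicate 1 (adjusted p = 0.17) or female replicate 2 (adjusted p = 0.47). The share of immature glia that lay in the inner band was 18.6% and 27.1% on the female coverslips 3 and 4 and 12.2% and 9.08% on the male coverslips 1 and 2, and its part in the difference was not tested. The share that came from the Ezr-led cluster was 31.4% and 36.9% on the female and 24.9% and 20.3% on the male coverslips. Per 10000 counts, Emx2 had 28.6 and 32.8 outside the inner band on the female coverslips 3 and 4 and 15.3 and 21.04 on the male coverslips 1 and 2. In immature glia from the astrocyte-like cluster alone it had 20.96 and 30.7 on the female and 16.3 and 21.02 on the male coverslips, so female coverslip 3 was no higher than male coverslip 2 there. In neuron-like cells Emx2 did not exceed every blank on any coverslip, and the part of that level in the difference was not tested.

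The difference of Etv4 between OPC-like and neuron-like cells also differed between the sexes, by 0.47 on the log2 scale, female minus male (SE 0.13, adjusted p = 0.034, edgeR interaction term, 2 coverslips per sex), and 2 of 103 genes (1.94%) were called. Without 1 coverslip it ranged from 0.33 to 0.60, and the call was lost without female replicate 1 (adjusted p = 0.28) or female replicate 2 (adjusted p = 0.99). It was 0.46 in cells with at least 50 counts (adjusted p = 0.050). In astrocyte-like over neuron-like cells the same term for Etv4 was also 0.47 (SE 0.14, adjusted p = 0.12, edgeR) and was not called. The higher count per cell on the female coverslips moved with sex, and its part in either difference cannot be told apart from sex. These settings were chosen after seeing the data. In neuron-like cells Etv4 did not exceed every blank on any coverslip. Per 10000 counts it had 6.64 and 5.45 there on the female coverslips 3 and 4 and 7.79 and 6.70 on the male coverslips 1 and 2. Per volume, the scale of the fit, the neuron values of the sexes overlapped. In OPC-like cells both female values per 10000 counts were above both male ones. The part of the neuron level in the Etv4 difference was not tested.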

How the results depend on the processing

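Of 210 recomputed values of the 3 genes, 192 kept their direction and their side of the threshold, and so did 114 of 140 recomputed counts of called genes within 1.5 times. Emx2 in astrocyte-like over neuron-like cells passed with TMM factors (1.35), library totals (1.28), DESeq2 (1.55) and the mean blank subtracted (2.21). In OPC-like over neuron-like cells, where both classes lay within the blanks, it changed sign with TMM factors (0.09), library totals (0.08) and DESeq2 (0.05). In immature glia over neuron-like cells it lost its call at resolution 2 (1.20), and Gli3 lost its call with no replicate block (1.36). Gli3 in cortical over thalamic-type territory likewise lost its call with no replicate block (0.93). Emx2 in cortical over striatal-type territory passed with library totals (0.79), the mean blank subtracted (1.00) and squares of side 400 (0.77), and ranged from 0.69 to 0.81 without 1 coverslip. In female over male astrocyte-like cells, where a sex with 1 coverslip left is assumed to vary like the other, Emx2 ranged from -0.01 to 0.43 and Gli3 from -0.03 to 0.11 without 1 coverslip. The cause was not tested in any of these.

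Genes called higher and lower in astrocyte-like over neuron-like cells numbered 20 and 10 with TMM factors, 20 and 12 with library totals and 21 and 7 with DESeq2, and 14 were lower with no replicate block. In immature glia 21 were higher and 7 lower with TMM factors and with library totals, 7 were lower with DESeq2, and 10 were lower with no replicate block. In OPC-like cells 7 and 3 were called with TMM factors, 6 and 3 with library totals and with DESeq2, and 1 and 10 with no replicate block. Without the block, cortical over thalamic-type territory had 7 and 5 called, and cortical over striatal-type territory 1 lower. Squares of side 400 gave 12 higher against striatal-type territory, and 2 to 4 were lower there without 1 coverslip. The blanks limit what can be read in neuron-like and OPC-like cells, where Emx2 did not exceed every blank on any coverslip, and Gli3 did so on 1 of 4 and on 0 of 4.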

Other observations

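Cells left out for low counts were read for the 3 genes as well. In the 9024 cells of the low-count cluster Etv4 averaged 0.412 ± 0.298 counts per cell (SD, n = 4 coverslips) and exceeded every blank on 2 of 4 coverslips, while Emx2 and Gli3 exceeded every blank on 0 of 4. Per 10000 counts Etv4 had 51.4, 33.5, 106 and 223 there on coverslips 3, 4, 1 and 2, and coverslip 4 held 42 of these cells. In the 68747 cells with under 20 counts Etv4 averaged 0.042 ± 0.027 counts per cell, above every blank on 2 of 4 coverslips.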
